A study of Mus musculus with 6 samples.

Results

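Transcripts of 10 Sertoli cell genes were followed library by library in sorted leptotene/zygotene (L/Z) spermatocytes, to judge how much somatic RNA the sorts carried. The genes were Sox9, Wt1, Gata4, Rhox5, Amh, Inha, Clu, Defb19, Ctsl and Cldn11, and they were found by symbol among the 54532 genes of the count table. There were 3 libraries from control males, labelled wild type and described in the study as littermates, and 3 from Eef1g-cKO males, in which exons of the translation elongation factor gene Eef1g are removed in male germ cells by Stra8-GFPCre. The floxed line was on a C57BL/6J background. The testes were taken at 12 days postpartum (dpp), dissociated enzymatically, stained with a Hoechst DNA dye and sorted by flow cytometry. From immunostaining of sorted cells, the study reported comparable shares of L/Z spermatocytes in control and Eef1g-cKO. Stra8-GFPCre is active in germ cells from the spermatogonial stage, and is not known to act in Sertoli cells. Neither the number of cells nor the number of animals behind a library is stated, and p-values therefore measure the spread between these libraries.

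Sertoli cells are the somatic cells of the seminiferous tubule. They enclose the germ cells, feed them, seal the tubule with tight junctions and secrete hormones such as anti-Müllerian hormone and inhibin. SOX9, WT1 and GATA4 are transcription factors that set and keep Sertoli cell identity. None of the 10 genes is needed to define an L/Z spermatocyte, and Ctsl and Clu are transcribed in many other cell types as well.

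Libraries held between 763133 and 2617648 reads assigned to genes, with the lowest total in Eef1g-cKO replicate 3. Between 14903 and 15761 genes had a read in control and between 11174 and 14514 in Eef1g-cKO, and rRNA genes took 2.73% to 9.23% of reads, the most in Eef1g-cKO replicate 3. A count of 3 reads, taken as the detection floor, equalled 1.18 to 4.63 CPM (counts per 1000000 reads, after TMM scaling of library sizes). In every library more genes had exactly 2 reads (1377 to 1758 genes) than exactly 1 (954 to 1194), and whether the mates of a read pair were counted singly is not stated, so low counts may hold fewer fragments than reads. No molecular identifiers were used, and floors and intervals cover counting error only. Eef1g itself was at 219.8 ± 7.34 CPM in the controls and at 136 ± 16.0 CPM in the Eef1g-cKO libraries (SD, n = 3). The groups did not overlap, as for 18.1% of all tested genes in this direction. Its log2 fold change was −0.68 (edgeR adjusted p 0.0290), which is under the fold limit of 1 used for calls below. These counts cover the whole gene and not the deleted exons alone. Of 12 genes listed for the L/Z stages, Sycp1, which encodes the transverse filament of the synaptonemal complex, had the most reads. It was at 5101 ± 248 CPM in the controls and at 10487 ± 2381 CPM after deletion. The list was uneven, and Rec8 had at most 5 reads in a control library and 8 in an Eef1g-cKO library.

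Each of the 10 genes had a read in at least 1 library, and 3 of the 6 that could be tested were called lower in Eef1g-cKO. Defb19, Clu and Cldn11 were called lower, Wt1 and Sox9 had negative fold changes that did not pass the test, and Ctsl did not separate the groups. Inha, Rhox5, Gata4 and Amh did not pass the filter on low counts. Among the 6 tested members 3 were called lower (50%) and 0 higher, where a call needed a log2 fold change beyond 1 in size and, in the quasi-likelihood test of edgeR, an adjusted p below 0.05. At the same limits 4.96% of all 8513 tested genes were lower and 3.42% higher. Without the fold limit the members again gave 3 lower and 0 higher, beside 6.01% and 7.8% of all tested genes. At an unadjusted p under 0.05 with the same fold limit, 5 members were lower and 0 higher, beside 9.62% lower and 4.79% higher among all tested genes. Of the tested members 5 had a negative log2 fold change, with a median of −2.49 over the 6, whereas 52.5% of all tested genes were negative and their median was −0.05. All Eef1g-cKO libraries lay below all control libraries for 4 of the 6 tested members, and for 18.1% of all tested genes. The filter on low counts kept members that were abundant in at least 1 group, so these counts describe the 6 tested members and not all 10. Cldn11, 1 of the 3 called lower, passed the filter through its control libraries alone, so its call is partly tied to the filter. In sorted bulk RNA, fewer cells of a type and less RNA per cell cannot be told apart.

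**Figure D1:**
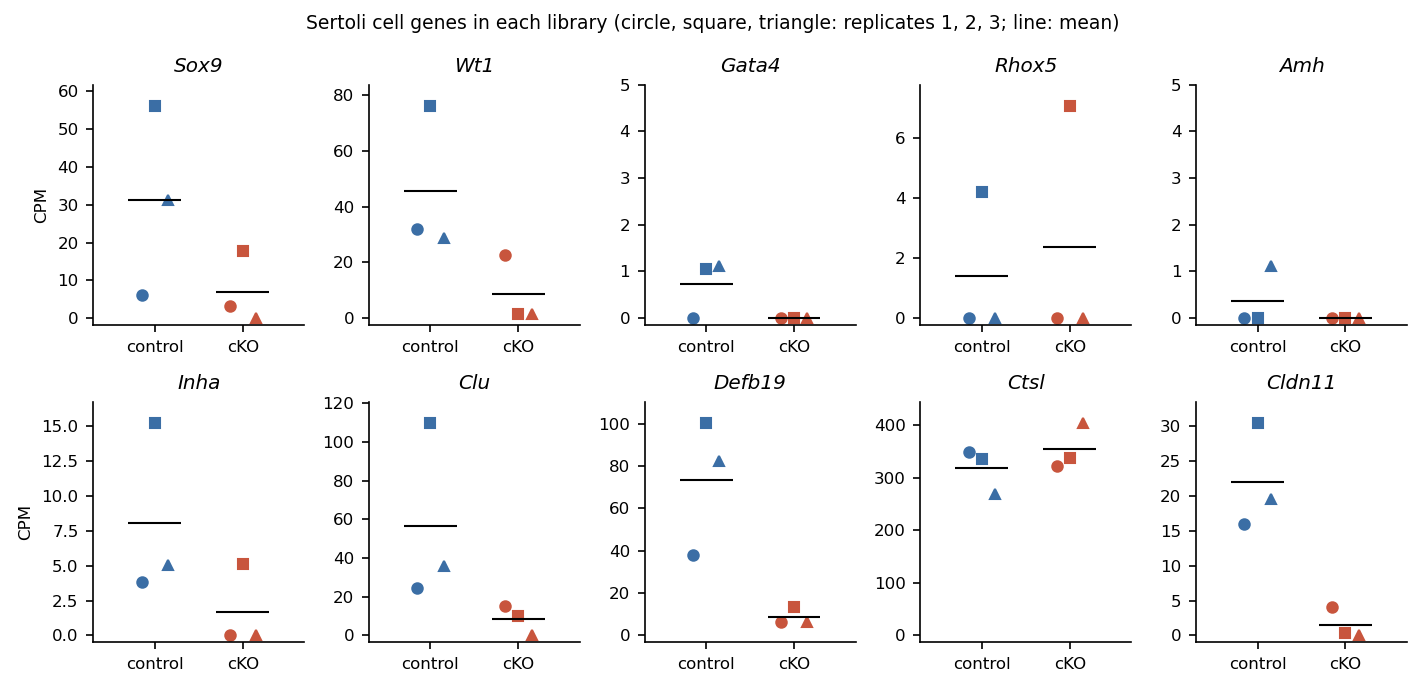
CPM of each of the 10 genes (vertical axis, scaled per gene) in the 3 control libraries (blue) and the 3 Eef1g-cKO libraries (red), with a line at the mean of each group. Control replicate 2 (square) was the highest control library for 7 genes, Ctsl lay between 269.8 and 404.7 CPM, and Gata4 and Amh had at most 2 reads in any library.

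The transcription factors are the classical marks of the Sertoli lineage. Of the 4 measured here, Sox9 and Wt1 were tested and did not pass, and Gata4 and Rhox5 had too few reads to be tested. Sox9 (ENSMUSG00000000567, GRCm38 chromosome 11, 112782224 to 112787760, plus strand), the factor that directs Sertoli cell differentiation, had 8, 107 and 56 reads in control replicates 1 to 3 and 4, 45 and 0 reads in Eef1g-cKO replicates 1 to 3. These were 6.11, 56.2 and 31.3 CPM in the controls and 3.24, 17.6 and 0 CPM after deletion. Control replicate 1 lay among the Eef1g-cKO libraries, so the groups overlapped. The log2 fold change was −1.92 (SE 0.86, edgeR adjusted p 0.167), and without Eef1g-cKO replicate 2 it was −3.90 (adjusted p 0.0177). Without control replicate 2 it was −1.24 (edgeR adjusted p 0.511).

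Wt1 (ENSMUSG00000016458, chromosome 2, 105126529 to 105173616, plus strand) encodes a zinc finger factor required to maintain Sertoli cells. It had 42, 145 and 51 reads in control, or 32.1, 76.1 and 28.5 CPM, and 28, 4 and 1 reads in Eef1g-cKO, or 22.6, 1.57 and 1.54 CPM. The groups did not overlap, but Eef1g-cKO replicate 1 lay close to the lower control libraries. The log2 fold change of −2.40 (SE 0.79) had an edgeR adjusted p of 0.0591. With DESeq2 it was −2.40 and passed the threshold (adjusted p 0.0149), and without Eef1g-cKO replicate 1 it was −4.78 (edgeR adjusted p 0.000921). Without control replicate 2 it was −1.79 (edgeR adjusted p 0.250), and without Eef1g-cKO replicate 2 it was −1.74 (adjusted p 0.102).

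Gata4 (ENSMUSG00000021944, chromosome 14, 63198922 to 63271692, minus strand), a zinc finger factor of Sertoli and Leydig cells, was near absent. It had 0, 2 and 2 reads in control and none in the Eef1g-cKO libraries, so every library was at or under the floor and no fold change is given. Rhox5 (ENSMUSG00000095180, chromosome X, 37804842 to 37808876, plus strand), a homeobox gene of Sertoli cells, was read in 1 library of each group. It had 8 reads in control replicate 2 (4.20 CPM) and 18 reads in Eef1g-cKO replicate 2 (7.06 CPM), and 0 reads in the other libraries. Without the low-count filter its log2 fold change was 0.89 (SE 1.60, edgeR adjusted p 0.757), which leaves its direction unresolved.

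The hormone genes were low. Amh (ENSMUSG00000035262, chromosome 10, 80805243 to 80807648, plus strand), which encodes anti-Müllerian hormone of immature Sertoli cells, had 2 reads in control replicate 3 and none in the other 5 libraries. Inha (ENSMUSG00000032968, chromosome 1, 75507077 to 75510366, plus strand) encodes the alpha subunit of inhibin, the hormone that restrains pituitary FSH release. It had 5, 29 and 9 reads in control (3.82, 15.2 and 5.04 CPM) and 0, 13 and 0 reads in Eef1g-cKO, where the 13 reads equalled 5.10 CPM. Eef1g-cKO replicate 2 thus lay at the level of the lower control libraries. Without the low-count filter the log2 fold change of Inha was −1.84 (SE 1.16, edgeR adjusted p 0.47).

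The secreted proteins encoded by Defb19 and Clu had transcripts that were called lower in Eef1g-cKO. Defb19 (ENSMUSG00000050645, chromosome 2, 152576086 to 152580312, minus strand) encodes a beta-defensin, a small secreted peptide. It had 50, 191 and 147 reads in control, or 38.2, 100.3 and 82.3 CPM, and 8, 34 and 4 reads in Eef1g-cKO, or 6.47, 13.3 and 6.18 CPM. The highest Eef1g-cKO library was well below the lowest control library. The group means were 73.6 ± 32.0 and 8.66 ± 4.05 CPM (SD, n = 3), and the fitted log2 change was −2.97 with an SE of 0.47 (edgeR adjusted p 0.000376). It was called in all 16 other fits that tested it, including each fit that left out 1 library.

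Clu (ENSMUSG00000022037, chromosome 14, 65968483 to 65981547, plus strand) encodes clusterin, a secreted chaperone. It had 32, 209 and 64 reads in control (24.4, 109.7 and 35.8 CPM) and 19, 26 and 0 reads in Eef1g-cKO (15.4, 10.2 and 0 CPM). The groups did not overlap, and control replicate 2 held most of the control reads. The log2 fold change was −2.58 (SE 0.69, edgeR adjusted p 0.0225). Without control replicate 2 it was −1.70 with an adjusted p of 0.212, and without Eef1g-cKO replicate 2 it was −2.63 with an adjusted p of 0.0817, so the call was lost in these fits.

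Cldn11 (ENSMUSG00000037625, chromosome 3, 31149920 to 31164324, plus strand) encodes claudin 11, the tight junction protein of the blood-testis barrier. Of the 4 members with an entry in RefSeq's promoter table, it was the 1 whose start site coincided with the 5′ end of the counted gene; the entries of Inha, Ctsl and Rhox5 begin elsewhere. The 250 bases before the Cldn11 start (GRCm38.p6, chr3:31149670-31149919, plus strand) are shown because Cldn11 was called lower and its counted gene begins at this start. Capitals mark the letters ATTGG, the reverse strand of a CCAAT box:
Cldn11 upstream: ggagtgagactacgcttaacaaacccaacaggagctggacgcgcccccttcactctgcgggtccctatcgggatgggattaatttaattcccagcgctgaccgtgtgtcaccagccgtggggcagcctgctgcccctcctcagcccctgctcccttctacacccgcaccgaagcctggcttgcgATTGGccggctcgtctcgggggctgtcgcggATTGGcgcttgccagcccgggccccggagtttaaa
The 2 matches begin at positions −66 and −35 from the start. CCAAT, searched on either strand, was present in 33.8% of 32851 such windows, and it was added to the search after this sequence had been read. The letters TGATAA did not occur on either strand of this window, nor did AGATAA, and these motifs of GATA factors, which overlap in all but their first letter, were present in 7.94% and 9.99% of all windows. The SOX factor motif ACAATG was also missing here (10.7% of windows hold it), as was the motif AAGGTCA of the nuclear receptor NR5A1 (4.08%). These matches describe the sequence only.

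Cldn11 had 21, 58 and 35 reads in control, or 16.0, 30.4 and 19.6 CPM, and 5, 1 and 0 reads in Eef1g-cKO, or 4.04, 0.392 and 0 CPM. The groups were clearly apart, and 2 of the Eef1g-cKO libraries were below the floor. The group means were 22.0 ± 7.51 and 1.48 ± 2.23 CPM (SD, n = 3), and the fitted log2 change was −3.84 with an SE of 0.89 (edgeR adjusted p 0.00714). Without control replicate 2 the log2 fold change was −3.49 and the adjusted p was 0.0761, so the call was lost. Without Eef1g-cKO replicate 1 it was −5.84 (edgeR adjusted p 0.00301) and without Eef1g-cKO replicate 2 it was −3.11 (adjusted p 0.0280).

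Ctsl behaved unlike the other tested members. Ctsl (ENSMUSG00000021477, chromosome 13, 64359337 to 64370890, minus strand) encodes the lysosomal protease cathepsin L, which Sertoli cells secrete and many other cells contain. It had 458, 640 and 482 reads in control and 399, 861 and 262 reads in Eef1g-cKO. These were 349.6, 336 and 269.8 CPM in the controls and 322.6, 337.6 and 404.7 CPM after deletion, so the groups overlapped and the highest library was within 1.30-fold of the lowest in either group. The log2 fold change was 0.15 (SE 0.18, edgeR adjusted p 0.623), and with library totals as the only scaling it was −0.05 (adjusted p 0.893). The gene overlaps the antisense gene Gm47123 and the processed pseudogene Gm49230. Its count may hold reads of either or lack reads from the shared bases, since the counting settings are not given. No other member overlaps an annotated gene.

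**Figure D2:**
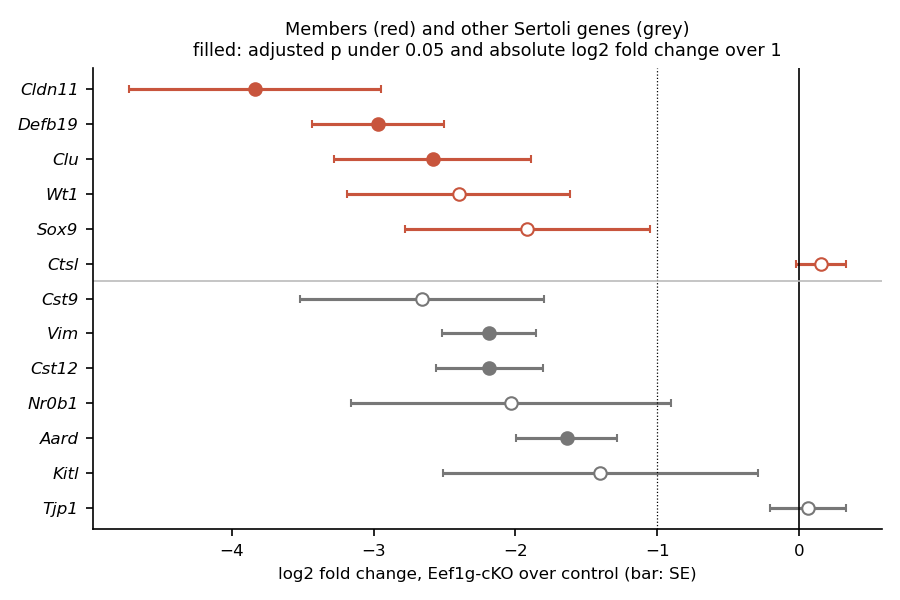
Log2 fold change of Eef1g-cKO over control (horizontal axis, bars are SE) for the 6 tested members (red) and 7 of the 8 tested genes of a second list of Sertoli cell genes (grey). Filled points passed the adjusted p and the fold limit (dotted line at −1); Ctsl at 0.15 and Tjp1 at 0.06 are the 2 points above 0.

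Per base of counted exon, Defb19 was the most abundant member in control. On the RPKM scale (CPM per 1000 bases of counted exon length) its level in control was 186.7 ± 81.1 (SD, n = 3), from 96.9 to 254.5. Ctsl followed with 49.1 ± 6.58, and its highest library (53.9) was below the lowest library of Defb19. Clu (16.5 ± 13.5), Cldn11 (11.8 ± 4.02), Sox9 (7.55 ± 6.05), Wt1 (7.36 ± 4.28) and Inha (5.44 ± 4.25) came next and could not be ordered, since each range overlapped the next. Rhox5 (1.86), Amh (0.223) and Gata4 (0.185) were at the bottom. In Eef1g-cKO the first 2 places changed, with Ctsl at 54.7 ± 6.73 RPKM (49.7 to 62.4) above Defb19 at 22.0 ± 10.3 RPKM (15.7 to 33.8). The counted length of Wt1 (6195 bases) exceeded its longest coding transcript (3090 bases), and that of Clu (3437) exceeded its longest (1810). Their RPKM are therefore understated if the coding transcripts gave the reads. Ctsl has coding transcripts of 582 to 6168 bases and its length is the least certain. A shorter Ctsl length would raise its RPKM, so its place below Defb19 in control, and the change of places, hold for the counted length.

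Ctsl decided the summed level of the members. With all 10 genes the sum was 470.2, 729.2 and 474.7 CPM in the controls and 374.4, 392.9 and 412.4 CPM in the Eef1g-cKO libraries, and the control mean was 1.42-fold the Eef1g-cKO mean. The other 9 genes together had 120.6, 393.2 and 204.9 CPM in the controls and 51.8, 55.3 and 7.72 CPM in the Eef1g-cKO libraries. The means were 239.6 ± 139.6 and 38.3 ± 26.5 CPM (SD, n = 3), a ratio of 6.26, and the groups did not overlap. Without control replicate 2 the ratio was 4.25. Control libraries differed by up to 3.26-fold in this sum and Eef1g-cKO libraries by up to 7.16-fold.

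The number of members seen also varied between libraries. Control replicates 1, 2 and 3 had more than 3 reads for 7, 8 and 7 of the 10 genes, and Eef1g-cKO replicates 1, 2 and 3 for 6, 7 and 2. This limit is a raw count, and in each group the library with the most genes above it, replicate 2, was also the deepest. Eef1g-cKO replicate 3, the shallowest library, held 5 reads in all for the 9 genes other than Ctsl, of which 4 were of Defb19 and 1 of Wt1. Its floor of 4.63 CPM lies below every control value of Clu and Cldn11, both of which had 0 reads there.

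The 9 genes did not keep a fixed ratio to each other from library to library. In control Defb19 made up 31.6% (95% Wilson interval 24.9 to 39.3), 25.5% (22.5 to 28.7) and 40.2% (35.3 to 45.3) of the member reads of replicates 1 to 3, and Cldn11 made up 13.3%, 7.74% and 9.56%. Sox9 was 5.06% (2.59 to 9.67) of these reads in control replicate 1 and 14.3% (12.0 to 17.0) in replicate 2. The Eef1g-cKO libraries differed more. In Eef1g-cKO replicate 1, Wt1 was 43.8% (32.3 to 55.9) of 64 reads and Sox9 was 6.25%. In Eef1g-cKO replicate 2, Wt1 was 2.84% (1.11 to 7.06) of 141 reads, whereas Sox9 was 31.9% (24.8 to 40.0), Rhox5 12.8% (8.23 to 19.3) and Inha 9.22%. The intervals of Wt1 and of Sox9 did not overlap between these 2 libraries, and they count reads of amplified cDNA, so they are narrower than intervals over molecules would be.

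**Figure D3:**
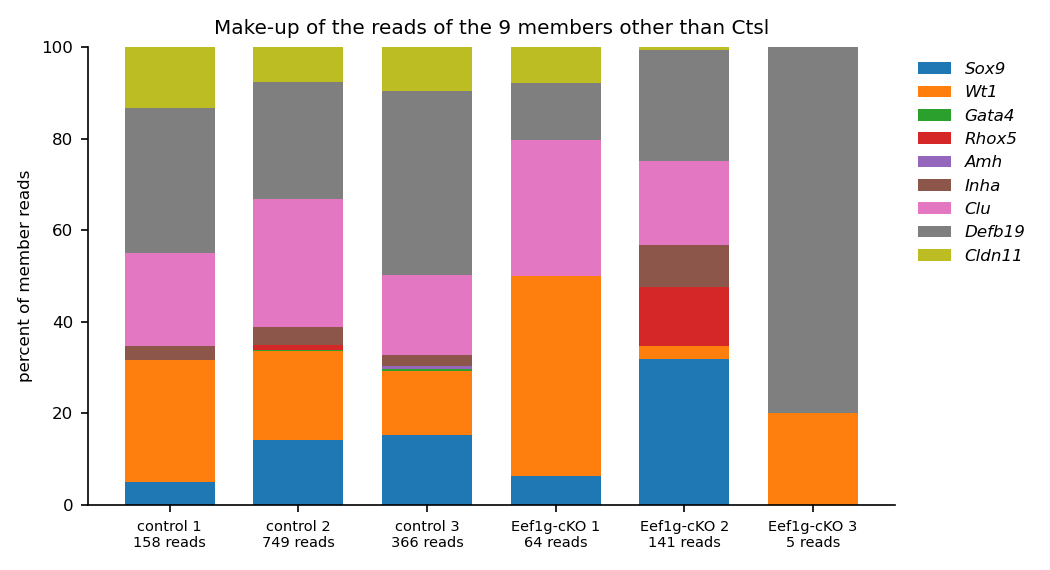
Share of each gene (vertical axis, percent) in the reads of the 9 members other than Ctsl, with 1 bar per library and the number of reads under it. Wt1 made up 43.8% in Eef1g-cKO replicate 1 and 2.84% in replicate 2, where Sox9 made up 31.9%, and the bar of Eef1g-cKO replicate 3 rests on 5 reads.

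A second list of 25 Sertoli cell genes outside the members showed the same direction. Of its 8 tested genes 4 were called lower (50%) and 0 higher by edgeR, against 4.96% and 3.42% of all tested genes. The low-count filter kept genes abundant in at least 1 group, so these counts describe the 8 tested genes and not all 25. The list was also chosen with earlier results of these data known, so it is not an independent check on the members. Cst12 (chromosome 2, 148789361 to 148793546), a cystatin gene of the testis, was the most abundant of them per length and had 69.5, 246.7 and 150.02 CPM in the controls and 34.0, 31.8 and 38.6 CPM in the Eef1g-cKO libraries. Its log2 change was −2.18 with an SE of 0.38 (edgeR adjusted p 0.00105). Control replicate 2 was again the highest and the groups did not overlap. Aard, a Sertoli cell gene of unsettled function, was at 120.9 ± 57.8 CPM in the controls and 37.7 ± 12.1 CPM after deletion, and its log2 change was −1.64 with an SE of 0.36 (edgeR adjusted p 0.00504).

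Vim, which encodes the intermediate filament vimentin of Sertoli and many other somatic cells, had 113.7, 131.2 and 138.3 CPM in the controls and 38.8, 28.2 and 13.9 CPM in the Eef1g-cKO libraries. Its log2 change was −2.19 with an SE of 0.33 (edgeR adjusted p 0.000282). Cst9, the other cystatin, had 45.03, 221.5 and 125.4 CPM in the controls and 40.4, 4.31 and 21.6 CPM in the Eef1g-cKO libraries. Its log2 change of −2.66 with an SE of 0.86 did not pass (edgeR adjusted p 0.0936). Tjp1, a tight junction scaffold found in most epithelia, did not separate the groups, with a log2 change of 0.06 and an SE of 0.27 (edgeR adjusted p 0.905). The remaining 17 genes were not tested, and 7 of the 25 had at most 3 reads in every library, among them Nr5a1, Gata1, Trf and Krt18. Fshr, the FSH receptor of Sertoli cells, had 4 reads in control replicate 1 and 2 in Eef1g-cKO replicate 2.

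Markers of other cells moved with the genotype as well. Among all tested genes 4.96% were called lower and 3.42% higher, and the calls of each list stand beside these shares. The low-count filter kept genes abundant in at least 1 group, and Igf1 and Col3a1 passed it through their control libraries alone. Of 12 peritubular and stromal genes 6 were tested and 5 were called lower, 0 higher. Their summed level was 221 to 369 CPM in the controls and 23.2 to 89.0 CPM after deletion. Dcn, a stromal proteoglycan gene, was at 83.1 ± 29.4 and 15.5 ± 12.6 CPM in the 2 groups (log2 change −2.28, edgeR adjusted p 0.00575), and Igf1, a growth factor gene, at 32.5 ± 5.59 and 1.06 ± 0.92 CPM (log2 change −4.57, adjusted p 0.00037). Col1a1, Col1a2 and Col3a1, fibrillar collagen genes, had log2 fold changes of −2.53, −2.09 and −3.03 by the same edgeR test. The smooth muscle genes of the list, which mark peritubular myoid cells, were too low to be tested and overlapped between the groups. Acta2 had 30, 10 and 7 reads in the controls and 0, 21 and 4 after deletion, Des had 1, 3 and 0 reads and then 0, 18 and 0, and Myh11, Tagln and Cnn1 had at most 4 reads in any library. Spermatogonial markers summed to 2153 to 2636 CPM in the controls and 1057 to 1322 CPM after deletion, with 6 of 10 tested genes lower and 0 higher; Dmrt1, which Sertoli cells also transcribe, was the most abundant, at 914.8 ± 58.1 and 551.5 ± 95.1 CPM in the 2 groups. The genes of early prophase summed to 9944 to 11430 CPM in the controls and 21463 to 28436 CPM after deletion, with 6 of 11 tested genes higher and 0 lower. Their part in the lower Sertoli cell levels was not tested.

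Markers of the remaining cell types were sparse. Leydig cell genes summed to 8.40 to 10.7 CPM in the controls and 1.57 to 6.47 CPM after deletion, with Cyp17a1, Hsd3b1 and Hsd3b6 at 0 in every library and most of the reads from Star, a gene of cholesterol import, which had 57 reads in all. Endothelial genes summed to 3.82 to 12.9 CPM in the controls and 0 to 35.6 CPM after deletion, with the most reads over all 6 libraries from Cdh5, an endothelial cadherin gene. Blood and macrophage genes summed to 8.40 to 104.6 CPM in the controls and 5.10 to 100.4 CPM after deletion, with the most reads over all 6 libraries from the globin gene Hbb-bs, although Hba-a1 was higher in Eef1g-cKO replicate 3 (37 reads against 12). Reads of globin genes may be shared between near-identical paralogs, and Cd68 and Csf1r were at 0. Genes of pachytene and later germ cells summed to 45.3 to 55.7 CPM and 4.63 to 28.3 CPM, with the most reads over all 6 libraries from Adam2, a sperm surface protein gene. Of 3 tested genes of this list 1 was called lower, Piwil1, a piRNA pathway gene with 34, 22 and 30 reads in the controls and 0, 1 and 0 after deletion (edgeR adjusted p 0.00142). Piwil1 passed the low-count filter through its control libraries alone, and 4.96% of all tested genes were called lower.

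**Figure D4:**
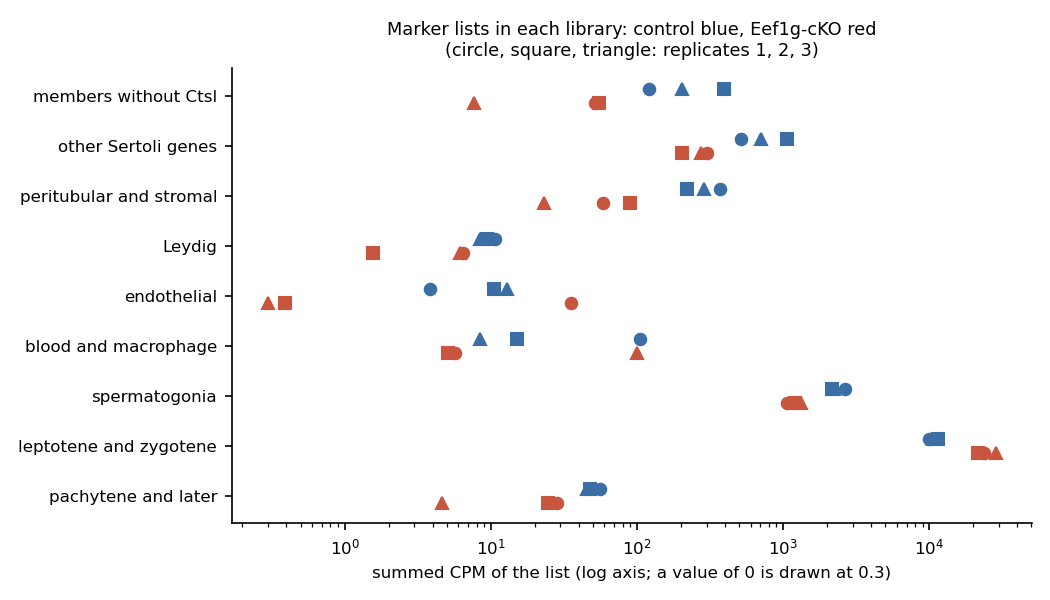
Summed CPM of the 9 members other than Ctsl and of 8 marker lists (horizontal axis, log scale, with a value of 0 drawn at 0.3) in each control library (blue) and Eef1g-cKO library (red). The members, the second Sertoli list, the peritubular and stromal list, the Leydig list, the spermatogonial list and the pachytene list lie lower in all Eef1g-cKO libraries than in all control libraries, and the L/Z list lies higher.

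Genes with the most similar pattern over the 6 libraries were searched among 4711 tested genes whose mean count reached 50 reads. Closest to the summed CPM of the 10 members were Xpot (Pearson r 0.96), Plaa and Polr3g (0.94 each), and Ikbkap and Lsm1 (0.93 each). Ctsl was the largest part of this sum but differed by at most 1.30-fold within either group. The other 9 genes together differed by up to 3.26-fold among the controls. Closest to Defb19 were Basp1 and Gsr (0.99 each), and Sox11, Snrpa1 and Scd2 (0.98 each). All of these r values are the highest of 4711 over 6 libraries of 2 genotypes. All Eef1g-cKO libraries lay below all control libraries for Xpot, Polr3g, Ikbkap and the 5 genes closest to Defb19, whereas the groups overlapped for Plaa and Lsm1, and control replicate 2 was the highest library for all 10. The genes were picked for likeness over these same libraries, so both traits follow largely from the choice. Among all tested genes, 18.1% had all Eef1g-cKO libraries below all control libraries.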

How the data were processed

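Polyadenylated RNA of sorted cells was amplified as full-length cDNA, and fragments of the cDNA of 6 libraries were read from both ends over 150 bp. The authors filtered reads with fastp, aligned them to GRCm38 with HISAT2 2.2.1 and assigned them to genes with featureCounts 2.0.6. The deposited file holds these raw counts, not normalised; the strand setting and the treatment of reads with several alignments are not given in the sources used here. The submitters' processing notes also name DESeq2.

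Groups and replicate numbers were taken from sample titles. Differential expression was tested on the whole table with edgeR 4.0.16 in R 4.3.3 (filterByExpr with a minimum count of 10 and minimum total of 15, TMM scaling, robust quasi-likelihood F test, genotype as the only term), and p-values were adjusted by Benjamini-Hochberg over 8513 tested genes. SE was taken as the size of the log2 fold change over the root of its F statistic. A gene was called at a log2 fold change beyond 1 in size with an adjusted p below 0.05. CPM used TMM-scaled library sizes, and RPKM divided CPM by the deposited gene length. The script was tested on simulated data. Alternatives were other scalings and filters, DESeq2 1.42.0, limma-voom (limma 3.58.1) with sample weights, a replicate block, thinning to 763133 reads, removal of mitochondrial and rRNA genes and leaving out each library. Same-numbered libraries did not deviate together (correlations of −0.04, 0.02 and −0.05). Named genes were all members, Eef1g, the called and the 5 most abundant genes of the second Sertoli list, the most abundant gene of each other list and the called genes of the somatic lists, and those most similar in pattern; Fshr, Hba-a1, Piwil1, the smooth muscle genes and genes named for having few or no reads were added after their values were seen. Of the second Sertoli list, 1 called gene is included in the counts and sums and is not reported here. Members and lists were chosen with earlier results of these data known. GENCODE release 21 for mouse (GRCm38) gave overlaps and transcript lengths, and RefSeq the promoter sequences.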

Additional observations from a re-analysis of the deposited data

How the results depend on the processing

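The number of members called lower was 3 and stayed at 3 or 4 under 10 alternatives, although the called genes were not always the same. It was 5 without the low-count filter and 5 at an unadjusted p. It was 0 when at least 10 reads were required in every library, where Ctsl was the 1 member tested, so that the median log2 fold change there was 0.0081. Leaving out 1 library gave 1 to 4, and the lowest number came without control replicate 2, where Defb19 alone was called. No member was called higher in any fit. The second Sertoli list had 4 genes lower in the fit described, 2 with at least 10 reads in every library, and 2 to 7 over all alternatives; leaving out 1 library gave 3 to 7, with 7 without Eef1g-cKO replicate 1.

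Defb19 was called in every fit that tested it, from −3.51 to −2.70 (adjusted p 1.69e-08 to 0.00597). Clu was lost with limma-voom (−2.43, adjusted p 0.224), and its fits with 1 library left out ran from −3.02 to −1.70. Cldn11 was lost without control replicate 2 and ran from −5.84 to −3.11 with 1 library left out. Wt1 passed with library totals (−2.57), no low-count filter (−2.36), DESeq2 (−2.40), limma-voom (−2.80), non-robust estimation (−2.40), the replicate block (−3.01) and thinned libraries (−2.25), and ran from −4.78 to −1.74 with 1 library left out. Sox9 passed without the low-count filter (−1.87) and ran from −3.90 to −1.24 with 1 library left out. Ctsl turned negative with library totals (−0.045) and did not pass in any fit. The cause was not tested. The log2 ratio of summed CPM was −0.50 with all 10 members, −2.65 without Ctsl and −2.62 without Ctsl and Clu, since Ctsl had more reads than any other member in every library. With the replicate block 4 members were lower, Wt1 being the added one, and the numbers do not pair the libraries. Gata4, Amh, Rhox5 and Inha had too few reads at this depth for a direction.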

Other observations

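Within the control group, the libraries did not rank alike for the 2 kinds of somatic marker. The 9 members other than Ctsl were lowest in control replicate 1 (120.6 CPM), then replicate 3 (204.9 CPM) and replicate 2 (393.2 CPM), whereas the peritubular and stromal list had 369 CPM in replicate 1, 289 CPM in replicate 3 and 221 CPM in replicate 2. The second Sertoli list ranked as the members did, with 513, 704 and 1072 CPM in replicates 1, 3 and 2.

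Blood and macrophage genes were highest in control replicate 1 (104.6 CPM) and Eef1g-cKO replicate 3 (100.4 CPM), the library of each group with the lowest summed CPM of the 9 members, and were at most 15.2 CPM in the other 4 libraries. Control replicate 1 and Eef1g-cKO replicate 3 also had the fewest reads of their groups (1265850 and 763133) and the largest rRNA shares (6.29% and 9.23%). Any link between these traits was not tested. The endothelial list reached 35.6 CPM in Eef1g-cKO replicate 1, where Kdr had 23 reads and Cdh5 21 reads, and was at most 12.9 CPM elsewhere. Kitl, the stem cell factor gene of Sertoli cells, had 22 reads in Eef1g-cKO replicate 3 (34.0 CPM), where Sox9, Clu and Cldn11 had none, and 0 reads in Eef1g-cKO replicate 2; its log2 fold change was −1.40 (SE 1.11, edgeR adjusted p 0.463). Gja1, the gap junction gene of Sertoli cells, had 4, 47 and 32 reads in control and 5, 0 and 0 in Eef1g-cKO. Kdr, Kitl and Gja1 were named after their values were seen.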
